A study of Mus musculus with 6 samples.

Results

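The genes described here are the SLC25 family of mitochondrial carriers and the TIM and TOM genes of the mitochondrial protein import machinery. They were chosen by name from the deposited gene table: every protein-coding row called Slc25a, Timm or Tomm followed by a number. This gave 72 of 55232 features, namely 47 carrier genes, 15 TIM genes and 10 TOM genes. Of the 72, 59 passed the filter on low counts and were tested, and the other 13 had no more than 16 reads in any library.

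The RNA came from mouse pulmonary microvascular endothelial cells, a culture that the labels call a cell line, that had been kept with TCMK-1 cells for 12 h and was taken from the lower chamber. TCMK-1 is a mouse kidney tubular epithelial cell line. In the repletion group the TCMK-1 cells had been depleted of ATP and then repleted, which the labels abbreviate as IR, and in the control group they were untreated; the endothelial cells themselves were untreated in both. There were 3 samples per group, and no label says that they came from separate cultures. The p-values therefore set the difference between the groups only against the variation among these samples, and that variation may be technical.

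Each library held 15582349 to 17817618 counts, with 17899 to 22130 features detected. The defining endothelial markers were present: 9 of 10 had at least 10 counts in every library, led by Pecam1, and the exception was Cldn5, with at most 3 counts. Their summed level was 2377 to 2841 CPM (counts scaled to a common total, here without TMM factors) in the repletion group and 2284 to 2537 CPM in the control group, with Tek, Erg and Eng higher and Esam lower in the repletion group. Of 12 kidney tubular markers, led by Lcn2, 4 had at least 10 counts in every library and 5 were tested. The 12 summed to 115 to 159 CPM in the repletion group and 144 to 210 CPM in the control group. Lcn2 was lower in the repletion group and was the 1 call among them, and Epcam and Krt18 were at 0 in all 6 libraries. Leukocyte markers, led by Cd68, summed to 223 to 311 CPM in the repletion group and 378 to 417 CPM in the control group. Of these 8 markers, 2 had at least 10 counts in every library, while Itgam and Cd3e were at 0 in all 6 libraries. Of the 2 tested leukocyte markers 1, Cd68, was lower. Of 7 fibroblast markers, led by Pdgfra, 1 had at least 10 counts in every library and Lum was at 0 in all 6 libraries. The 7 summed to 15.4 to 20.1 CPM in the repletion group and 16.5 to 21.2 CPM in the control group. The part of these shifts in the results below was not tested.

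SLC25 carriers sit mostly in the inner mitochondrial membrane and exchange nucleotides, phosphate, amino acids, carboxylates, cofactors and iron between cytosol and matrix. Nearly all mitochondrial proteins are made in the cytosol and enter through the TOM complex of the outer membrane. From there, proteins with a presequence pass through TIM23, whereas carriers are escorted by the small TIM chaperones to the TIM22 complex, which inserts them into the inner membrane.

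**Figure D1:**
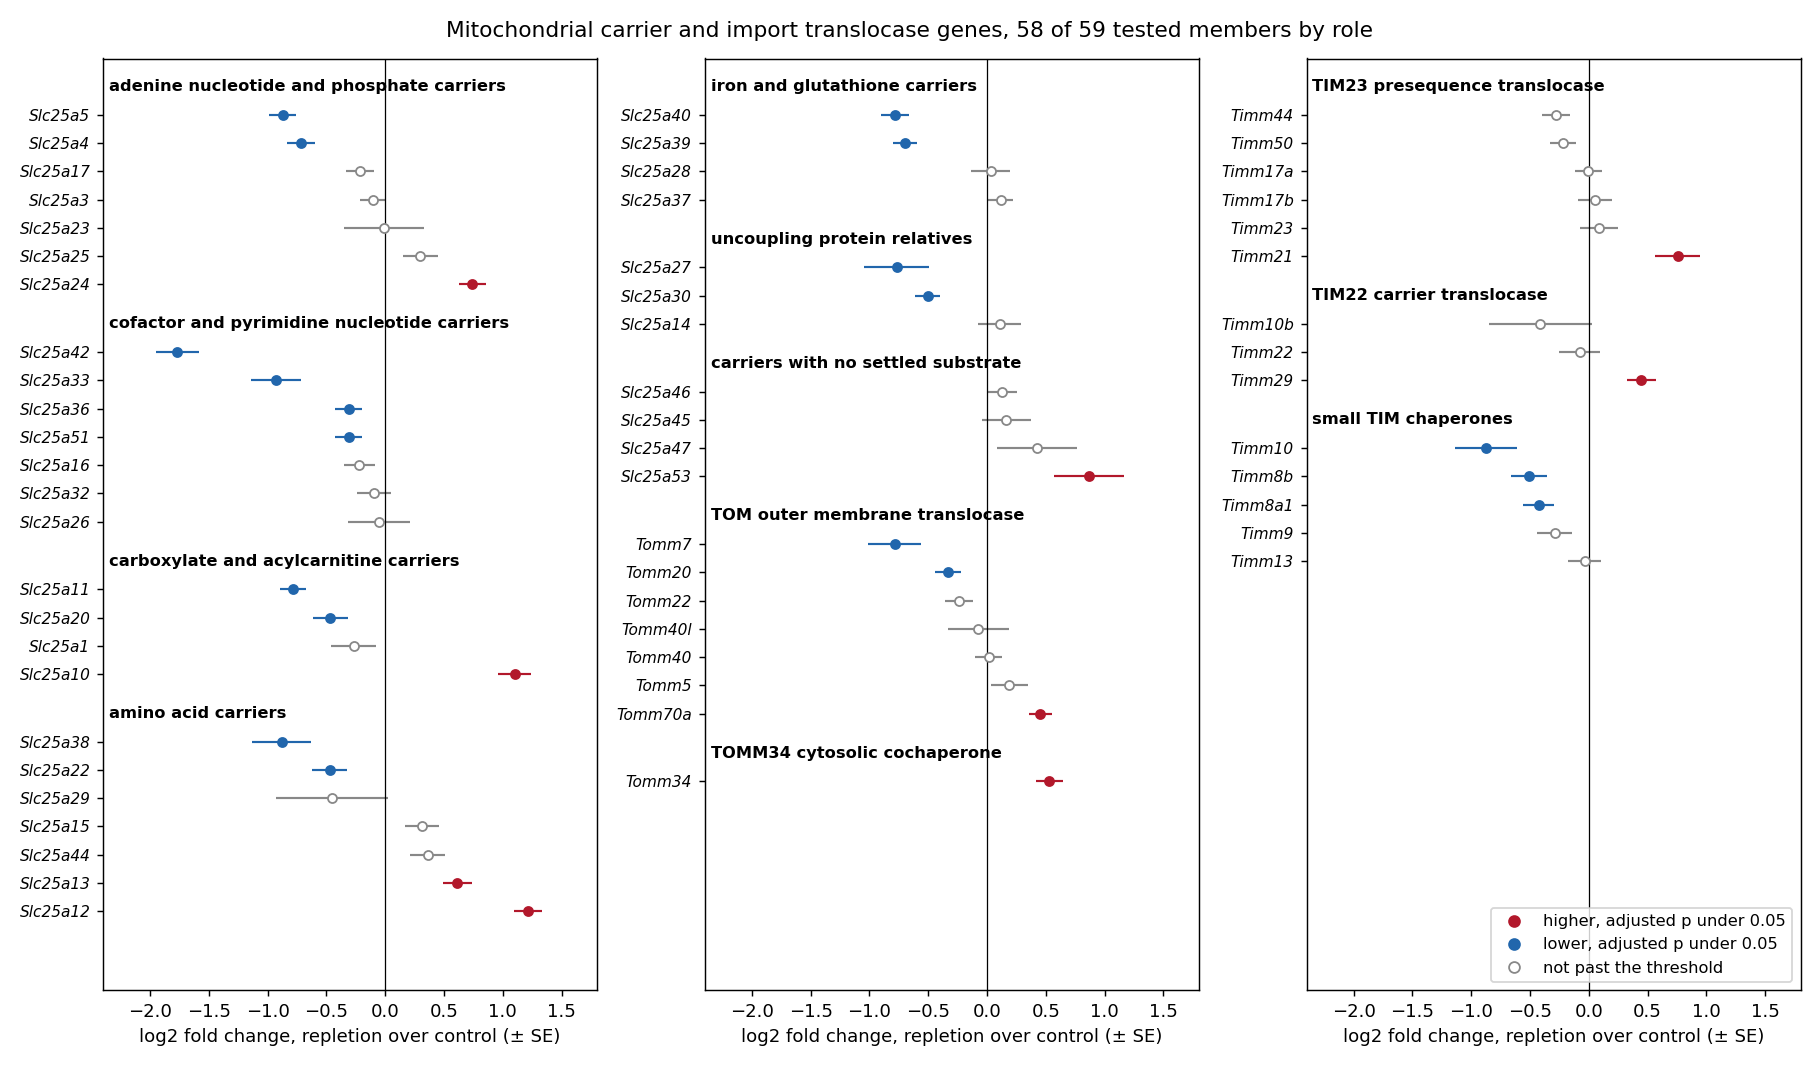
Log2 fold change of 58 of the 59 tested genes, repletion over control, with its standard error, grouped by role; filled points passed the adjusted p threshold of 0.05 and open points did not. Slc25a12 (1.21) and Slc25a10 (1.10) lie farthest to the right and Slc25a42 (-1.77) farthest to the left, and most roles hold points on both sides of 0.

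The 59 tested genes did not move one way. Of them, 9 were higher in the repletion group (15.3%) and 19 were lower (32.2%), while 31 did not pass the threshold. Over all 13804 tested features, 20.5% were called higher and 19.2% lower, or 39.7% in either direction. The counts by role given below rest on few genes each and are to be read beside these shares. The count of lower genes was 12 without repletion replicate 3 and also 12 without control replicate 3. The median log2 fold change of the 59 was -0.09, against 0.00 over all tested features; it was -0.21 without repletion replicate 2 and -0.22 without control replicate 2. The fold changes ranged from -1.77 for Slc25a42 to 1.21 for Slc25a12. The values of the repletion samples lay wholly above the control samples for 12 of the 59 genes and wholly below for 21, where 25.0% and 25.4% of all tested features did so. Only Slc25a12, Slc25a10 and Slc25a42 changed at least 2-fold past the threshold, where 7.53% of all tested features were higher and 2.77% lower by that much. All adjusted p-values here are Benjamini-Hochberg values of edgeR's quasi-likelihood test over all tested features, log2 fold changes are the repletion group over control with their standard error (SE), and levels of single genes are CPM scaled with TMM factors. In bulk RNA, less of a transcript per cell and fewer cells that carry it cannot be told apart.

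Of the 7 tested adenine nucleotide and phosphate carriers, 1 rose and 2 fell. The 2 that fell were the ADP/ATP translocases, which exchange matrix ATP for cytosolic ADP. Slc25a5 (chrX:36795651-36798807, plus strand) had 359, 396 and 457 CPM in repletion replicates 1 to 3, against 689.5, 689.9 and 838 CPM in control replicates 1 to 3. No repletion sample reached the lowest control sample, and the log2 fold change was -0.87 ± 0.11 (edgeR adjusted p = 2.0e-05). Slc25a4 (chr8:46206797-46211284, minus strand) had 137, 155 and 178 CPM in the repletion samples and 262, 222 and 287 CPM in the control samples, again without overlap, and its log2 fold change was -0.71 ± 0.12 (edgeR adjusted p = 0.000204). Slc25a5 made up 78.7 ± 0.276% of the summed level per kilobase of the pair in the repletion group and 80.4 ± 1.32% in the control group (SD, n = 3 each). These shares almost touched, with repletion replicate 1 at 78.988% and control replicate 1 at 79.025%. Slc25a5 has near-identical copies elsewhere in the genome, Gm5529 and Gm5560, to which the deposited table gave 529 and 222 counts over the 6 libraries, beside 56401 for Slc25a5 itself.

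Slc25a24, a calcium-regulated carrier that exchanges ATP-Mg for phosphate, moved the other way. It had 198, 240.1 and 258 CPM in the repletion samples and 152, 134 and 131 CPM in the control samples. All repletion samples were above all control samples, with a log2 fold change of 0.74 ± 0.11 (edgeR adjusted p = 9.85e-05; chr3:109123149-109168457, plus strand). Its relatives Slc25a25, with 22.1, 20.8 and 23.0 CPM in the repletion samples against 16.2, 17.5 and 19.8 CPM in the control samples, and Slc25a23, with 4.78, 2.20 and 6.70 CPM in the repletion samples against 3.94, 5.64 and 4.20 CPM in the control samples, did not pass the threshold. Their edgeR adjusted p-values were 0.12 and 0.988, although the groups of Slc25a25 did not overlap. The phosphate carrier Slc25a3, which supplies phosphate for ATP synthesis, had 776, 969 and 787 CPM in the repletion samples and 1006, 811 and 901 CPM in the control samples, and its groups overlapped (log2 fold change -0.10 ± 0.11, edgeR adjusted p = 0.497). Peroxisomal Slc25a17 had a log2 fold change of -0.22 ± 0.12 (edgeR adjusted p = 0.169).

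**Figure D2:**
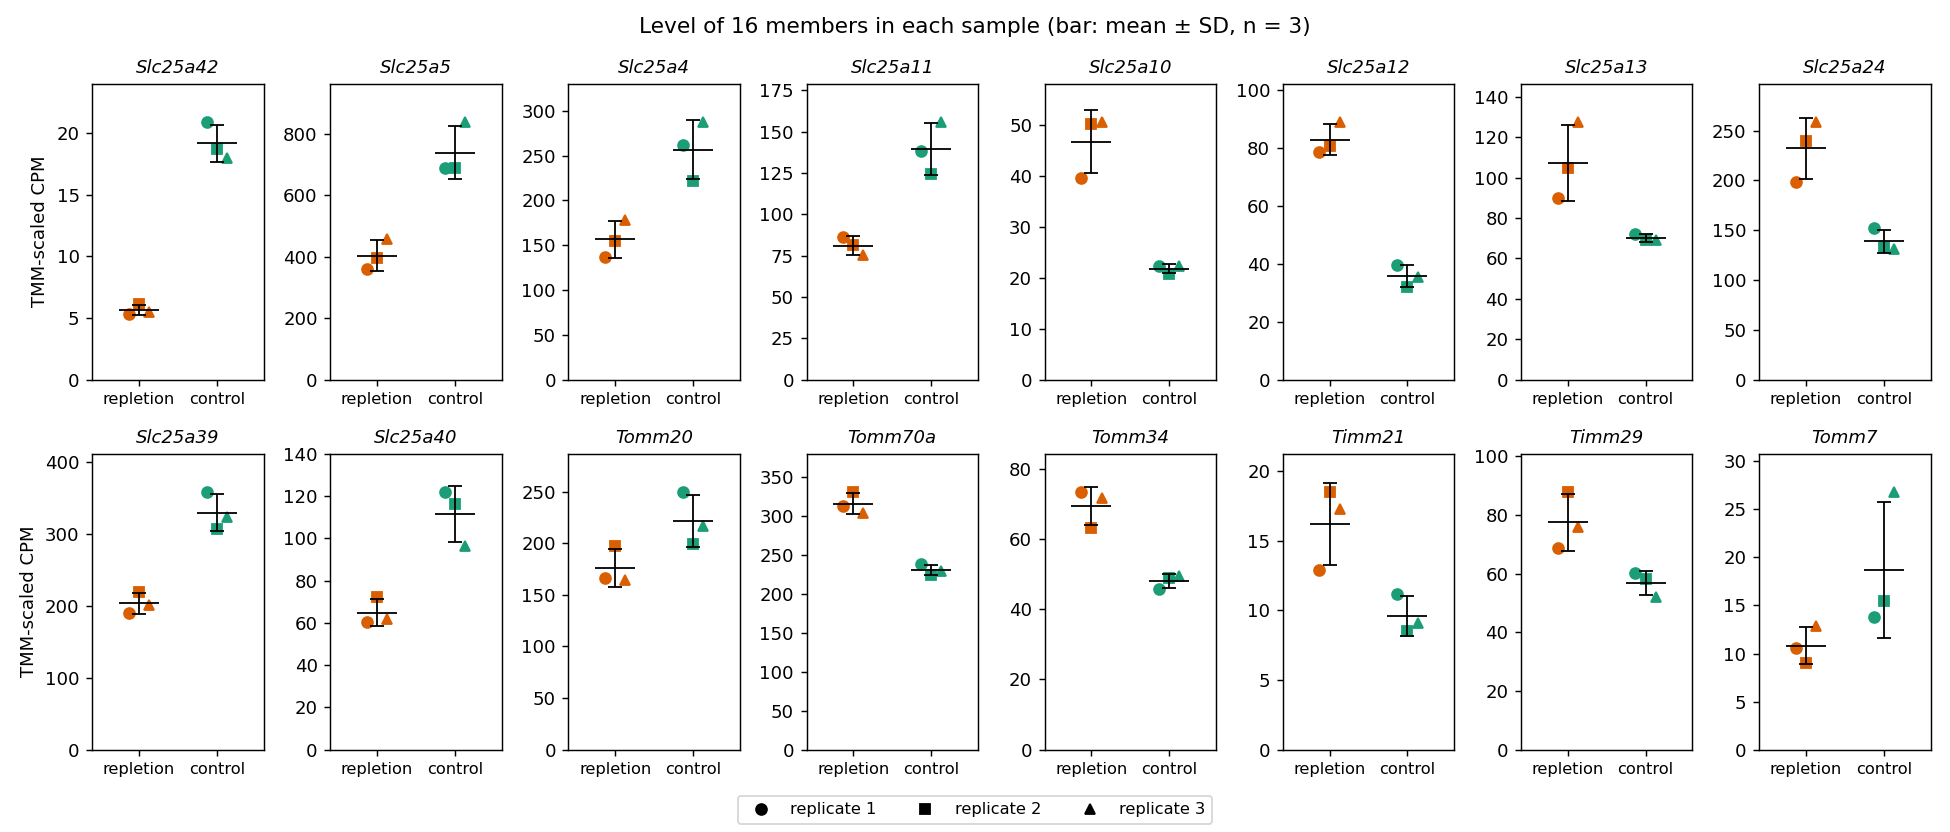
TMM-scaled CPM of 16 genes in every sample, with the repletion group left of the control group in each panel; symbols mark replicates 1 to 3 and bars the mean ± SD (n = 3). Each panel has its own axis from 0; in all 16 the groups do not overlap, and in Tomm7 control replicate 3 (26.8) stands above the other control samples (13.8 and 15.5).

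Of the 8 tested carriers of cofactors and pyrimidine nucleotides, 4 fell and the other 4 did not pass the threshold. Slc25a42, which carries coenzyme A into the matrix, fell the most of all 59 tested genes. It had 5.30, 6.10 and 5.50 CPM in the repletion samples and 20.9, 18.7 and 18.0 CPM in the control samples. The repletion mean was 0.294 times the control mean, far outside the spread of either group (log2 fold change -1.77 ± 0.18, edgeR adjusted p = 1.73e-06; chr8:70184340-70212305, minus strand). Slc25a33 and Slc25a36, which carry pyrimidine nucleotides for mitochondrial nucleic acid synthesis, both fell. Slc25a33 had 8.57, 8.48 and 6.93 CPM in the repletion samples and 20.2, 13.2 and 12.3 CPM in the control samples (log2 fold change -0.93 ± 0.21, edgeR adjusted p = 0.00238; chr4:149744036-149774277, minus strand). Slc25a36 had 82.5, 98.5 and 84.8 CPM in the repletion samples and 116, 117 and 96.7 CPM in the control samples; repletion replicate 2 lay above control replicate 3, so the groups overlapped (log2 fold change -0.31 ± 0.11, edgeR adjusted p = 0.0386). The share of Slc25a33 in the pair's summed level per kilobase was 31.5 ± 2.73% in the repletion group and 40.9 ± 5.48% in the control group (SD, n = 3 each).

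Slc25a51, known in human cells as a carrier of NAD+ into mitochondria, had 64.3, 61.3 and 73.2 CPM in the repletion samples and 76.9, 78.4 and 91.0 CPM in the control samples. Its groups did not overlap, and the log2 fold change was -0.31 ± 0.12 (edgeR adjusted p = 0.0408). The calls of Slc25a36 and Slc25a51 were each lost in 6 of the 17 other settings, among them scaling by library size only, with edgeR adjusted p-values of 0.133 and 0.193 at most over those settings. Slc25a16, Slc25a32, which carries folate, and Slc25a26, which carries S-adenosylmethionine, had log2 fold changes of -0.22, -0.09 and -0.05 and did not pass the threshold.

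The promoters of the 2 cofactor and pyrimidine carriers with the largest falls are shown because the 2 genes fell together, as RefSeq gives them on GRCm38.p6, from 250 bases before to 50 after the start of the gene, on the gene's own (minus) strand, 5′ to 3′. Capitals mark matches to the 7 motifs searched on both strands, which are spelled out further below. In Slc25a33 the capitals are, in order, an antioxidant response element match and an E-box; Slc25a42 holds none of the motifs.
Slc25a42, chr8:70212232-70212531: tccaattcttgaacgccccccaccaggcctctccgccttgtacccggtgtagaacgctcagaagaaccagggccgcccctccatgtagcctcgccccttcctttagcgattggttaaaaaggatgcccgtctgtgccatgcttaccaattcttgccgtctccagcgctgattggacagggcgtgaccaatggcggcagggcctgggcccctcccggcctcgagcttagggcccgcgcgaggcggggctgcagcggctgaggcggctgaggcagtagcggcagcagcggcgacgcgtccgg
Slc25a33, chr4:149774218-149774517: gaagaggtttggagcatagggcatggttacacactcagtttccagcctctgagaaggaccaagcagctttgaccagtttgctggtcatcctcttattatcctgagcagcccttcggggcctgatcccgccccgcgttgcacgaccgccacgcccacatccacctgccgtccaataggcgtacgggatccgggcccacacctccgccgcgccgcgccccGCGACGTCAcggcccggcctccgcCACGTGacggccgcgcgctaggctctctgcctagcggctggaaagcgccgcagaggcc

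Of the 4 tested carboxylate and acylcarnitine carriers, 1 was higher and 2 were lower. Slc25a10, the dicarboxylate carrier that exchanges malate and succinate for phosphate, had 39.6, 50.2 and 50.6 CPM in the repletion samples and 22.4, 20.8 and 22.4 CPM in the control samples. All repletion samples were above all control samples, a 2.14-fold difference (log2 fold change 1.10 ± 0.14, edgeR adjusted p = 1.18e-05; chr11:120491840-120499187, plus strand). Slc25a11, the oxoglutarate/malate carrier, moved the opposite way, with 86.5, 81.2 and 75.2 CPM in the repletion samples and 138, 125 and 156 CPM in the control samples (log2 fold change -0.79 ± 0.11, edgeR adjusted p = 4.3e-05; chr11:70644196-70647479, minus strand). Per kilobase, Slc25a10 thereby made up 21.9, 27.5 and 29.2% of the 2 genes' summed level in the repletion samples, against 9.01, 9.28 and 8.11% in the control samples. Slc25a20, which exchanges carnitine and acylcarnitine for fatty acid oxidation, fell, with 15.0, 16.8 and 15.9 CPM in the repletion samples and 23.4, 21.8 and 20.8 CPM in the control samples and no overlap. Its log2 fold change was -0.47 ± 0.15 (edgeR adjusted p = 0.0181), a call lost without repletion replicate 3 (edgeR adjusted p = 0.0520) or control replicate 1 (edgeR adjusted p = 0.0510). The citrate carrier Slc25a1 had a log2 fold change of -0.27 ± 0.19 and did not pass the threshold (edgeR adjusted p = 0.281).

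Of the 7 tested amino acid carriers, 2 rose and 2 fell. The 2 that rose were the calcium-regulated aspartate/glutamate carriers, which belong to the malate-aspartate shuttle together with Slc25a11. Slc25a12, also called aralar, had 78.7, 80.8 and 88.9 CPM in the repletion samples and 39.7, 32.1 and 35.3 CPM in the control samples. This 2.32-fold difference was the largest rise among the 59 tested genes, and every repletion sample was above every control sample (log2 fold change 1.21 ± 0.12, edgeR adjusted p = 1.22e-06; chr2:71271063-71367749, minus strand). Slc25a13, also called citrin, had 89.8, 105 and 127 CPM in the repletion samples and 72.2, 68.9 and 69.1 CPM in the control samples (log2 fold change 0.61 ± 0.12, edgeR adjusted p = 0.000888; chr6:6041218-6217173, minus strand). Slc25a13 was the more abundant of the 2 per kilobase, and the share of Slc25a12 was 31.2, 28.6 and 26.5% in the repletion samples, against 22.1, 19.4 and 20.9% in the control samples.

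The 2 amino acid carriers that fell were Slc25a38, a glycine importer that feeds heme synthesis, and Slc25a22, a glutamate carrier. Slc25a38 had 6.0, 7.73 and 3.95 CPM in the repletion samples and 13.2, 9.63 and 9.73 CPM in the control samples (log2 fold change -0.88 ± 0.25, edgeR adjusted p = 0.00928). Slc25a22 had 20.7, 18.4 and 16.6 CPM in the repletion samples and 24.9, 28.2 and 24.2 CPM in the control samples (log2 fold change -0.47 ± 0.15, edgeR adjusted p = 0.0169). Neither gene's groups overlapped, but without repletion replicate 3 the edgeR adjusted p was 0.0541 for Slc25a38 and 0.0827 for Slc25a22, and without control replicate 2 it was 0.0723 for Slc25a22. The ornithine carrier Slc25a15 (0.31), the branched-chain amino acid carrier Slc25a44 (0.36) and the basic amino acid carrier Slc25a29 (-0.45), given as log2 fold changes, did not pass the threshold. The promoter of Slc25a12, printed in the same way and on its own minus strand because it is that of the gene with the largest rise, held none of the motifs searched.
Slc25a12, chr2:71367706-71368005: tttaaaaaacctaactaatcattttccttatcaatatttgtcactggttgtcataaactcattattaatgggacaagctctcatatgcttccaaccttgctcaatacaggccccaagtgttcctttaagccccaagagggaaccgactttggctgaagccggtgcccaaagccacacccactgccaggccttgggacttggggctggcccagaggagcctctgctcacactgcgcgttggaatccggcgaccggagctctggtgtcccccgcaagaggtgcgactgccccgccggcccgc

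Of the 4 tested iron and glutathione carriers, the glutathione pair fell and the iron pair did not pass the threshold. Slc25a39, which brings glutathione into mitochondria, had 189.7, 219 and 202 CPM in the repletion samples and 358, 308 and 324 CPM in the control samples (log2 fold change -0.70 ± 0.10, edgeR adjusted p = 6.5e-05; chr11:102402985-102407946, minus strand). Slc25a40, its paralog, had 60.3, 72.1 and 61.9 CPM in the repletion samples and 122, 116 and 96.5 CPM in the control samples (log2 fold change -0.78 ± 0.12, edgeR adjusted p = 8.12e-05; chr5:8422850-8454797, plus strand). In both genes every repletion sample was below every control sample, and Slc25a39 made up 90.5 ± 0.302% of the pair per kilobase in the repletion group and 90.0 ± 1.06% in the control group (SD, n = 3 each). The mitoferrins, which import iron, had overlapping groups. Slc25a37 had 308, 280.2 and 239 CPM in the repletion samples and 253, 249.6 and 261 CPM in the control samples (log2 fold change 0.12 ± 0.11, edgeR adjusted p = 0.415). Slc25a28 had 20.5, 20.0 and 14.8 CPM in the repletion samples and 16.7, 18.2 and 19.2 CPM in the control samples (log2 fold change 0.03 ± 0.16, edgeR adjusted p = 0.903).

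Among the relatives of the uncoupling proteins, 2 of 3 tested genes fell. Slc25a30 had 86.8, 106 and 97.3 CPM in the repletion samples and 133, 142 and 136 CPM in the control samples, without overlap (log2 fold change -0.51 ± 0.11, edgeR adjusted p = 0.00124; chr14:75760117-75787037, minus strand). Slc25a27 was low in all samples, with 5.13, 4.84 and 2.63 CPM in the repletion samples and 5.72, 8.05 and 7.71 CPM in the control samples (log2 fold change -0.77 ± 0.28, edgeR adjusted p = 0.0366). Its call was lost in 6 of the 17 other settings, with a largest edgeR adjusted p of 0.164. It was also the 1 gene called here that missed the threshold in the authors' deposited table, with an adjusted p of 0.0633. Slc25a14 had 10.1, 11.0 and 10.5 CPM in the repletion samples and 10.4, 9.12 and 9.84 CPM in the control samples, which overlapped (edgeR adjusted p = 0.677).

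Of the 4 tested carriers with no settled substrate, Slc25a53 rose. It had 4.84, 5.53 and 6.28 CPM in the repletion samples and 3.43, 2.03 and 3.63 CPM in the control samples, without overlap (log2 fold change 0.87 ± 0.30, edgeR adjusted p = 0.0271). At these low levels the call was lost without repletion replicate 3 (edgeR adjusted p = 0.108) or control replicate 2 (edgeR adjusted p = 0.126). Slc25a46, an outer membrane protein with a part in mitochondrial shape, had 66.4, 94.5 and 75.5 CPM in the repletion samples and 74.4, 66.6 and 75.2 CPM in the control samples, which overlapped (edgeR adjusted p = 0.452). Slc25a47 and Slc25a45 had log2 fold changes of 0.42 and 0.16 and did not pass the threshold.

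Of the 7 tested genes of the TOM complex, 1 rose (14.3%) and 2 fell (28.6%), beside 20.5% and 19.2% of all tested features. Tomm70a, the receptor that takes in carriers and other proteins with internal signals, had 312, 329.8 and 304 CPM in the repletion samples and 237, 224 and 229 CPM in the control samples. All repletion samples were above all control samples (log2 fold change 0.45 ± 0.10, edgeR adjusted p = 0.00132; chr16:57121703-57156705, plus strand). Tomm20, the receptor for presequences, had 166, 197 and 165 CPM in the repletion samples and 249, 199 and 216 CPM in the control samples (log2 fold change -0.33 ± 0.11, edgeR adjusted p = 0.0257; chr8:126930667-126945844, minus strand). Its groups were close, with repletion replicate 2 just below control replicate 2, and the call was lost in 6 of the 17 other settings, with a largest edgeR adjusted p of 0.117. Of the 2 receptors' summed level per kilobase, Tomm70a made up 48.5, 45.7 and 48.1% in the repletion samples and 32.3, 36.1 and 34.7% in the control samples, without overlap. Tomm70a has 9777 bases, and tested protein-coding genes of 8000 to 12000 bases had a median log2 fold change of 0.17. Over the 17 other settings the log2 fold change of Tomm70a was 0.30 to 0.51. With each sample left out it was 0.41 to 0.47.

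Tomm7, a small subunit of the complex, had 10.6, 8.99 and 12.9 CPM in the repletion samples and 13.8, 15.5 and 26.8 CPM in the control samples (log2 fold change -0.79 ± 0.23, edgeR adjusted p = 0.0114). Control replicate 3 set much of this difference: without it the log2 fold change was -0.44 (edgeR adjusted p = 0.131). The central receptor Tomm22, at 94.9, 116 and 117 CPM in the repletion samples and 134, 111 and 141 CPM in the control samples, had overlapping groups (edgeR adjusted p = 0.126). The pore-forming subunit Tomm40 was at 56.6, 49.0 and 50.8 CPM in the repletion samples and 48.7, 52.1 and 53.9 CPM in the control samples (log2 fold change 0.01 ± 0.12, edgeR adjusted p = 0.938). Its paralog Tomm40l, which shares 64.3% of its length with the antisense gene Nr1i3, was at 5.36, 12.0 and 8.25 CPM in the repletion samples and 10.3, 7.29 and 9.33 CPM in the control samples. Tomm5 had a log2 fold change of 0.19 ± 0.16, and none of Tomm22, Tomm40, Tomm40l and Tomm5 passed the threshold. Tomm34, which is not part of the complex but a cytosolic cochaperone of precursor proteins, rose, with 73.2, 63.0 and 71.7 CPM in the repletion samples and 45.9, 48.9 and 49.4 CPM in the control samples (log2 fold change 0.53 ± 0.11, edgeR adjusted p = 0.00148; chr2:164053540-164071169, minus strand).

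The promoters of the 2 receptors called in opposite directions are given in the same form, with Tomm70a on the plus strand and Tomm20 on the minus strand. In Tomm70a the capitals mark an ETS motif. In Tomm20 they mark, in order, an antioxidant response element match, an E-box and an NRF1 motif; this window follows the RefSeq start and lies wholly outside the deposited gene, which ends at 126945844.
Tomm70a, chr16:57121464-57121763: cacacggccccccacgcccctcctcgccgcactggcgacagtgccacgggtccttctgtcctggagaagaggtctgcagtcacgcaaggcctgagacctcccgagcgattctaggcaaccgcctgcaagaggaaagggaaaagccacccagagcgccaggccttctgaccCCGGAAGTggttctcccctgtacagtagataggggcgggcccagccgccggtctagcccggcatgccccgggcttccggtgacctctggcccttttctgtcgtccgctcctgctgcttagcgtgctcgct
Tomm20, chr8:126945872-126946171: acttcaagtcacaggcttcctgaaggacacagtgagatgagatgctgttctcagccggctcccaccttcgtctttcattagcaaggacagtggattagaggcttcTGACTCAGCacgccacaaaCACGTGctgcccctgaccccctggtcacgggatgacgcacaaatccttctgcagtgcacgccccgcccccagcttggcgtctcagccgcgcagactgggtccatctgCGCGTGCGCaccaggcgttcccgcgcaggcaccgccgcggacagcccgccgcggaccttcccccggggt

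Of the 6 tested genes of the TIM23 presequence translocase, Timm21 rose and the others did not pass the threshold. Timm21, which links TIM23 to the TOM complex and to respiratory chain assembly, had 12.9, 18.5 and 17.3 CPM in the repletion samples and 11.2, 8.49 and 9.10 CPM in the control samples, without overlap (log2 fold change 0.76 ± 0.19, edgeR adjusted p = 0.00489). Timm44, which tethers the import motor, had 46.4, 42.0 and 45.7 CPM in the repletion samples and 49.7, 56.3 and 56.6 CPM in the control samples, also without overlap (log2 fold change -0.28 ± 0.12, edgeR adjusted p = 0.0688). The presequence receptor Timm50 had 76.2, 67.9 and 79.5 CPM in the repletion samples and 88.5, 79.9 and 91.9 CPM in the control samples (edgeR adjusted p = 0.125). The channel genes were close between the groups. Timm17a had 62.6, 52.0 and 60.1 CPM in the repletion samples and 57.5, 55.4 and 62.3 CPM in the control samples. Timm17b had 19.2, 22.4 and 20.4 CPM in the repletion samples and 20.7, 19.1 and 20.1 CPM in the control samples. Their log2 fold changes were -0.00 ± 0.12 and 0.05 ± 0.14. Timm23 had a log2 fold change of 0.09 ± 0.16 (edgeR adjusted p = 0.697), and it has 5 near-identical copies in the genome, so its count is uncertain.

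In the TIM22 carrier translocase 1 of 3 tested genes rose. Timm29, known as a TIM22 subunit from human cells, had 68.7, 87.7 and 75.9 CPM in the repletion samples and 60.0, 58.1 and 52.2 CPM in the control samples, without overlap (log2 fold change 0.45 ± 0.12, edgeR adjusted p = 0.00674). Without control replicate 3 its edgeR adjusted p was 0.0522. Timm22, the insertase itself, had a log2 fold change of -0.08 ± 0.17, and Timm10b, a peripheral subunit, had 3.32, 2.33 and 0.837 CPM in the repletion samples and 3.49, 2.28 and 2.88 CPM in the control samples; neither passed the threshold (edgeR adjusted p = 0.752 and 0.481).

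Of the 5 tested small TIM chaperones of the intermembrane space, which hold carriers on their way to TIM22, 3 fell and the other 2 did not pass the threshold. Timm10 had 3.03, 4.52 and 5.02 CPM in the repletion samples and 7.30, 6.21 and 9.50 CPM in the control samples (log2 fold change -0.87 ± 0.26, edgeR adjusted p = 0.0145). Timm8b had 21.3, 15.0 and 21.3 CPM in the repletion samples and 27.5, 26.2 and 28.4 CPM in the control samples (log2 fold change -0.51 ± 0.16, edgeR adjusted p = 0.0157). Timm8a1 had 33.4, 33.6 and 30.2 CPM in the repletion samples and 43.5, 38.3 and 48.8 CPM in the control samples (log2 fold change -0.43 ± 0.13, edgeR adjusted p = 0.0152). In all 3 the groups did not overlap, but all 3 calls were lost without control replicate 3, with edgeR adjusted p-values of 0.0907 for Timm10, 0.0538 for Timm8b and 0.0927 for Timm8a1. Timm8b is short and shares part of its exon with the antisense gene Nkapd1, which had 2605 counts beside 2300 for Timm8b, and with the trend of fold change on gene length removed its log2 fold change was -0.31 (edgeR adjusted p = 0.128). Timm8a1 has a near-identical copy, Gm9797, with 115 counts beside 3750. Timm9 and Timm13 had log2 fold changes of -0.29 ± 0.15 and -0.03 ± 0.14 and did not pass the threshold.

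**Figure D3:**
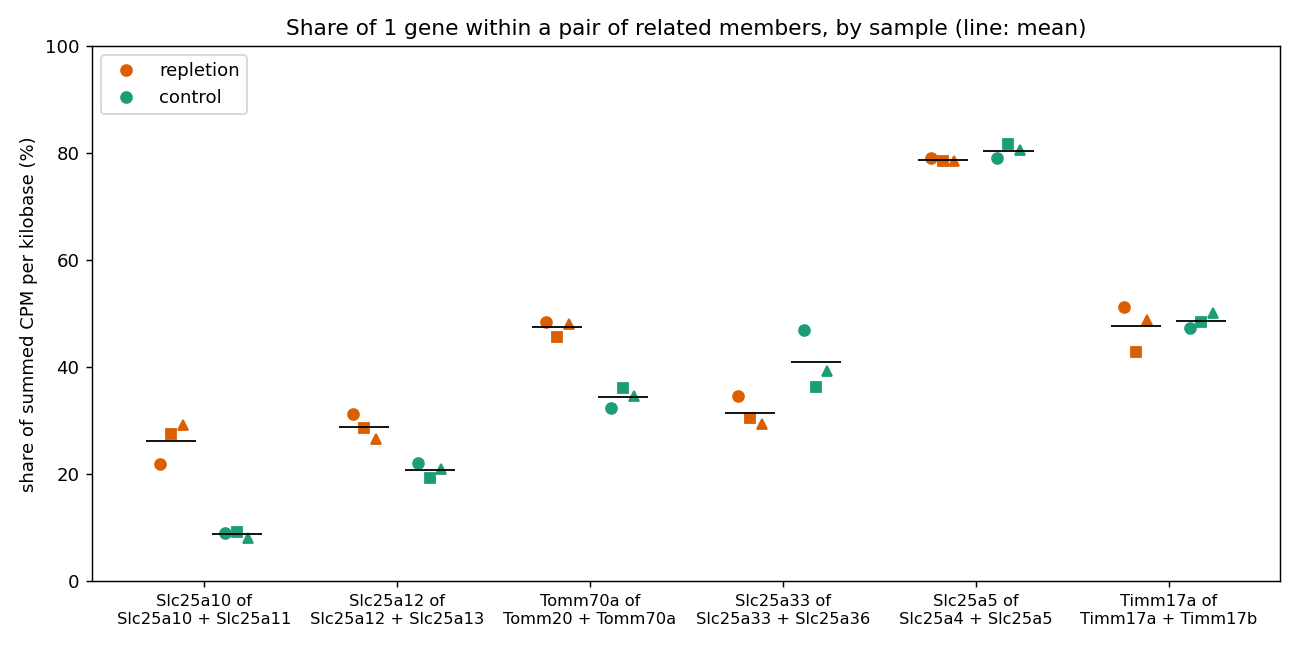
Share of 1 gene in the summed CPM per kilobase of a pair, in percent, for each sample, with the repletion group left of the control group and a line at the mean. Slc25a10 (on average 26.2% in the repletion group against 8.80% in the control group) and Tomm70a (47.4% in the repletion group against 34.4% in the control group) show the widest gaps, and the groups overlap for Timm17a.

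Summed over the genes, levels per kilobase were lower in every repletion sample than in every control sample for the carriers and for the TIM genes, and overlapped for the TOM genes. The carriers summed to 915 ± 61.1 CPM per kilobase in the repletion group and 1223 ± 78.8 in the control group (SD, n = 3 each). The TIM genes summed to 213 ± 11.5 CPM per kilobase in the repletion group and 237 ± 11.7 in the control group. Their groups were close, with repletion replicate 3 at 222.4 and control replicate 2 at 224.0. The separation leaned on Timm8b, the most abundant TIM gene per kilobase and a short one. Timm8b held 37.1 ± 7.01 of the TIM sum in the repletion group and 52.8 ± 2.16 in the control group. Its own call was lost with the length trend removed. Among the TIM genes, those of TIM23 summed to 87.8 ± 6.58 in the repletion group and 88.5 ± 4.24 in the control group. The TIM22 genes summed to 31.8 ± 4.18 in the repletion group and 25.8 ± 1.82 in the control group, and the groups overlapped for both. The TOM genes summed to 210.3 ± 7.90 CPM per kilobase in the repletion group and 219 ± 20.2 in the control group. The abundant genes set the carrier sum: Slc25a5, Slc25a3 and Slc25a4 together held 50.7 ± 1.54% of it in the repletion group and 58.9 ± 1.98% in the control group. Per kilobase, Slc25a5 and Slc25a3 were the most abundant of the 59 in both groups, at 245 ± 30.0 and 152 ± 19.5 CPM per kilobase in the repletion group and 449 ± 52.0 and 163 ± 17.6 in the control group. Slc25a24 ranked 4 in the repletion group and 10 in the control group. The sum of the amino acid carriers was higher in the repletion group, at 58.4 ± 6.09 CPM per kilobase against 42.6 ± 1.50 in the control group, and that of the small TIM chaperones lower, at 93.2 ± 8.93 against 123 ± 7.55 in the control group. Exact permutation tests, two-sided, were run on 27 such sums and shares; with 3 samples against 3 the smallest p they can give is 0.1, which every non-overlapping sum and share reached, or 0.159 after adjustment over the 27.

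Longer genes had higher fold changes in these libraries, and the genes described here leaned the same way weakly and unevenly. Their median log2 fold change was -0.51 for the 3 of 200 to 1000 bases and 0.40 for the 10 of 3000 to 4000 bases. It was -0.31 for the 3 of 8000 to 12000 bases, where all tested protein-coding genes of that length had 0.17. Spearman's rho of log2 fold change with length was 0.19 over the 59 tested genes and 0.25 over 11682 tested protein-coding genes, as a description across genes that share the same libraries. Of the 12 tested genes under 2000 bases, 1 was higher and 6 were lower, where 9.36% of all tested protein-coding genes of that length were called higher and 27.4% lower. Of the 9 with 6000 bases or more, 3 were higher and 2 lower, where 32.1% and 13.5% of such genes were. The genes called lower had lengths from 518 bases (Timm8b) to 9594 bases (Slc25a36). Those called higher had lengths from 1315 bases (Timm21) to 9777 bases (Tomm70a). With the length trend removed from each library, 26 of the 28 calls were still made, the exceptions being Timm8b and Slc25a27. With the trends on length and GC content removed, 25 were, and Timm10 was lost as well.

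**Figure D4:**
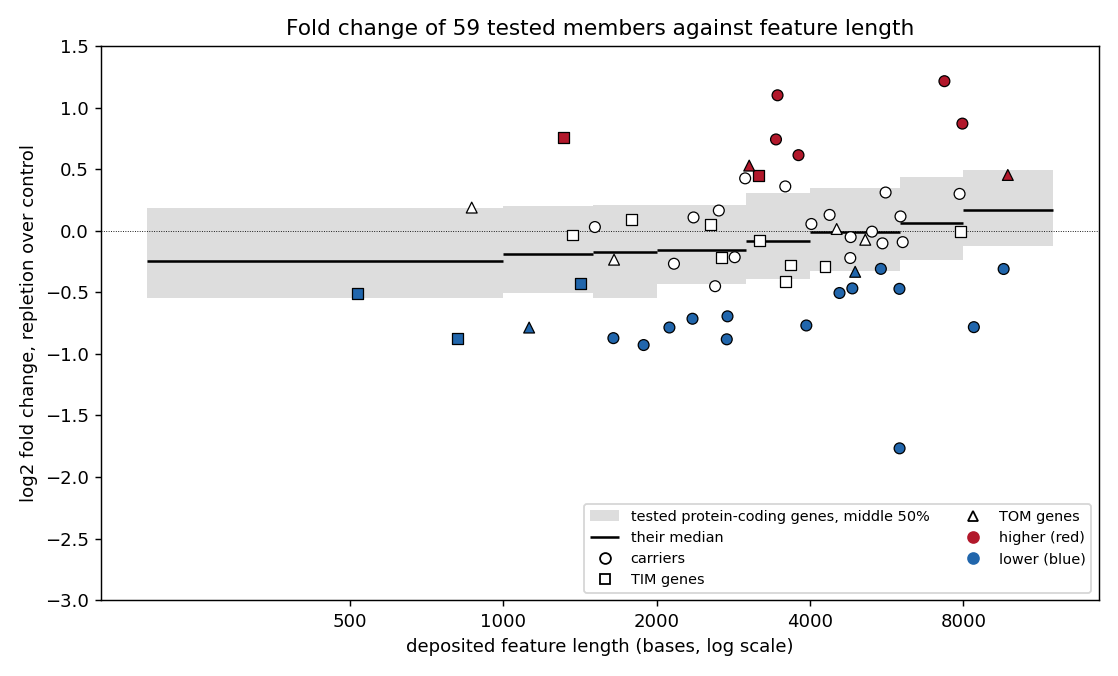
Log2 fold change, repletion over control, of the 59 tested genes against deposited length on a log axis, with the median and middle 50% of all tested protein-coding genes by length. The background median climbs from -0.25 in the shortest class to 0.17 in the longest. The called genes lie mostly outside the grey band, which follows from calls favouring large fold changes and says nothing about length.

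Promoters were available in RefSeq for 58 of the 72 genes, 8 of the 9 that rose and 16 of the 19 that fell. The motifs searched, each on both strands, were NRF1 (GCGCANGCG), ETS (CCGGAAGT), ERR (TCAAGGTCA), the E-box (CACGTG), the amino acid response type element CARE (TGATGNAA), the antioxidant response element ARE (TGACNNNGC) and YY1 (AAGATGGC), and no matches to different motifs overlapped in these genes. An E-box stood in 5 of the 16 promoters of genes that fell (31.3%; Slc25a33, Slc25a36, Timm10, Timm8a1 and Tomm20), in 1 of the 8 of genes that rose (Slc25a13), and in 11.9% of promoters of tested protein-coding genes. An ARE match stood in 5 of the 16 and 1 of the 8, against 17.0%. Among the tested genes that were not called, an E-box stood in 4 of 24 promoters and an ARE match in 4 of 24. Over all 58 promoters the shares were 20.7% for the E-box and 17.2% for the ARE. NRF1 was found in 2 of the 16 and in none of the 8, against 15.8%, and ETS in 2 of the 16 and 2 of the 8, against 9.74%. CARE was in none of the 58 promoters, where 2.67% of those of tested protein-coding genes hold it, YY1 in none of the genes called, and ERR in 1, Timm8b. These matches describe the letters in the window and are no measure of binding.

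Genes of the same pathways that the name rule does not take were counted from lists, to be read beside the 20.5% of all tested features called higher and 19.2% called lower. Of 25 import partners, such as motor subunits and assembly factors, 2 rose (8.0%) and 11 fell (44.0%), with a median log2 fold change of -0.31. Mtch2, an outer membrane insertase that is itself a divergent SLC25 relative, had 149 ± 5.05 CPM in the repletion group and 257 ± 19.9 CPM in the control group (SD, n = 3 each; log2 fold change -0.79 ± 0.10, edgeR adjusted p = 1.52e-05). Dnlz, which keeps mitochondrial HSP70 soluble, rose, with a log2 fold change of 0.95 ± 0.17 (edgeR adjusted p = 0.000316). Of 21 tested genes for other carriers of the mitochondrial membranes, 4 rose (19.0%) and 5 fell (23.8%), with a median of -0.20, among them Sfxn1, a serine transporter (0.94 ± 0.11, edgeR adjusted p = 5.57e-06), and Sfxn3 (-0.68 ± 0.12, edgeR adjusted p = 0.000257). Of 12 tested regulators of mitochondrial biogenesis, 3 rose (25.0%) and 1 fell (8.33%), with a median of 0.10. The leading rise was Gabpb2, a subunit of the GABP transcription factor (0.93 ± 0.13, edgeR adjusted p = 2.44e-05), and the fall was Ppargc1a, the coactivator PGC-1alpha (-0.43 ± 0.14, edgeR adjusted p = 0.0184), a call lost without repletion replicate 3 (edgeR adjusted p = 0.0857) or control replicate 3 (edgeR adjusted p = 0.0682). Of 17 mitochondrial stress and protein quality genes, 6 fell (35.3%) and 11 did not pass the threshold, with a median log2 fold change of -0.26. Ddit3, which encodes the stress transcription factor CHOP, had the smallest p of the list, with 12.6 ± 2.06 CPM in the repletion group and 53.9 ± 6.99 CPM in the control group (log2 fold change -2.10 ± 0.15, edgeR adjusted p = 5.23e-08). Spg7, a subunit of a matrix-facing protease, had a log2 fold change of 0.28 ± 0.13 (edgeR adjusted p = 0.0861).

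The 13 genes that were not tested comprised 10 carriers, Timm8a2, Tomm20l and Tomm6. Slc25a41, Slc25a43 and Timm8a2 had 0 counts in all 6 libraries, which for each library allows up to 3 counts. The highest count was that of Slc25a18, a glutamate carrier related to Slc25a22, with 6, 16 and 0 counts in the repletion samples and 0, 7 and 5 in the control samples. Slc25a31, the ADP/ATP translocase of the germ line, had 1 count in the 6 libraries. Tomm6, a small TOM subunit, shares most of its length with the readthrough gene Gm21981 on the same strand, so its 34 counts may not be all of its reads. In the authors' deposited table, 9 of the 66 genes with an adjusted p were higher and 18 lower past 0.05, and 27 genes were called in the same direction there and here.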

How the data were processed

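Total RNA of 6 samples was sequenced, 3 per group, as their titles say. The submitters' processing notes name the build GRCm38.p6 and the tools featureCounts 1.5.0-p3, HISAT2 2.0.5 and DESeq2 1.20.0, with no role for any. The strand setting of the counting was not given in the sources used, so a gene and its antisense partner cannot be told apart. The deposited table holds raw counts per feature, which are whole numbers and were the input of all tests. It also holds FPKM, which equal the deposited counts over length and 1 constant per sample (0.981 to 1.04 times the library total), and the authors' log2 fold changes with their p-values and adjusted p-values, used only where the deposited table is named; lengths and positions per the file headers.

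After filterByExpr and TMM scaling (factors 0.971 to 1.03), the whole table was tested in R 4.3.3 with the two-sided quasi-likelihood test of edgeR 4.0.16 (glmQLFit, glmQLFTest). Adjusted p-values (Benjamini-Hochberg) under 0.05 counted as calls, and the SE is the log2 fold change over the root of F. Library totals were 15582349 to 17817618 counts, and the common biological coefficient of variation was 14.1%. Levels between genes are TMM-scaled CPM per kilobase of deposited length. Replicate libraries differed by more than counting noise (chi-square per feature of 9.07 to 26.6). The fit was tested on simulated data. Near-identical copies were sought with BLAST 2.17.0 (at least 95% identity over at least 100 bases and 30% of the longest transcript) and exon overlaps in GENCODE M21; 3 members have a separate copy (Slc25a5, Timm23 and Timm8a1) and 26 overlap another feature, among them Tomm40l and Tomm6, whose matches lie at the same locus. Promoters are RefSeq's. The 17 alternatives included DESeq2 1.42.0, limma-voom (limma 3.58.1), other scalings and filters, each sample left out, and trends on length and GC content removed per library with mgcv 1.9.3.

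The members and lists were chosen with earlier results of these data known. Every called member is named; values per sample are given for each role's smallest p in either direction and highest level per kilobase, the 6 largest rises and falls, and paralog pairs. Each list gives its gene of smallest p in either direction. The values of 1 tested member that was not called are not reported here; it stays in the counts and medians.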

Additional observations from a re-analysis of the deposited data

How the results depend on the processing

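Of the 28 calls, 15 were made under all 17 alternatives: 7 rises (Tomm70a, Tomm34, Timm21, Slc25a24, Slc25a13, Slc25a12 and Slc25a10) and 8 falls (Slc25a5, Slc25a4, Slc25a39, Slc25a40, Slc25a11, Slc25a30, Slc25a42 and Slc25a33). No called gene changed sign. DESeq2, limma-voom, RLE and upper quartile scaling, no filter, a filter of 1 CPM in 3 samples and protein-coding genes alone kept all 28; library size only, which moved the median of all features by 0.06 on the log2 scale, kept 24 and gained 2. With each sample left out, 20 to 26 of the 28 were kept, fewest without repletion replicate 3 or control replicate 3. The members called lower then numbered 12 to 18, the carriers 9 to 14, the TIM genes 0 to 4, the TOM genes 0 to 3 and the biogenesis regulators 0 to 1; the TIM genes called higher numbered 1 to 2. Over all tested features, 1977 to 2745 were then called lower and 2195 to 2765 higher, against 2654 and 2830 with all samples. The median log2 fold change was then -0.22 to -0.063 for the members and -0.22 to -0.057 for the carriers. Library size only gave a median of -0.031 for the members, 1 TOM gene lower and 1 stress gene higher (Spg7). Removing the trends on length and GC content gave 1 TIM gene lower and 1 stress gene higher. The cause of these shifts was not tested.

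Same-numbered samples did not deviate together over all tested features (correlations of -0.08, -0.03 and 0.06). No label pairs the numbers, and a pairing that touched few genes need not show in these correlations. A fit with a replicate block kept 25 calls, losing Tomm20, Slc25a36 and Slc25a51, and gave 1 TOM gene lower.

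Among the named genes, signs turned only for those that did not pass the threshold. Slc25a23 gave 0.00027 with RLE scaling, 0.0034 with a 1 CPM filter, 0.0015 with the length trend removed, 0.050 with library size only and 0.023 with the length and GC trends removed. Timm17a gave 0.0041 with DESeq2, 0.0040 with RLE scaling, 0.0043 with protein-coding genes only, 0.058 with library size only and 0.0076 with a 1 CPM filter. Without a filter Slc25a28 gave -0.0092 and Tomm40 -0.024. With each sample left out the log2 fold changes ranged from -0.40 to 0.31 for Slc25a23, -0.057 to 0.16 for Slc25a28, -0.029 to 0.23 for Slc25a46, -0.063 to 0.065 for Timm17a, -0.019 to 0.096 for Timm17b, -0.053 to 0.050 for Tomm40 and -0.40 to 0.17 for Tomm40l. The 13 untested genes had at most 16 counts in any library.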
